A study of Homo sapiens with 4 samples.

Results

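The clustered protocadherins are neighbouring genes of 3 families, alpha, beta and gamma, that lie in a row on chromosome 5. Every gene of the count table with a clustered protocadherin symbol was taken, which gave 18 of 18917 genes: 1 alpha gene (PCDHA12), the 16 beta genes PCDHB1 to PCDHB16, and 1 gamma gene (PCDHGC5). The choice rested on the symbols alone, though the group was taken up with earlier results of these data known. In the GENCODE 44 annotation, protein-coding genes number 15 in the alpha, 16 in the beta and 22 in the gamma cluster, so the other 14 alpha and 21 gamma genes were not analysed here.

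RNA was sequenced in 4 libraries from human embryonic kidney cells, 2 from wild-type (WT) cells and 2 from cells with a knockout (KO) of THUMPD1, which encodes the tRNA-binding adaptor of the NAT10 acetyltransferase. The labels call the line HEK293 and the paper HEK-293T, an immortalized line, and both genotypes were grown in medium with 10% serum and 2 mM glutamine. The KO was made with Cas9 and a pair of guides given together, after which GFP-positive cells and then individual cells were sorted. The labels name no clone, so the effects of the genotype and of the history of a clone cannot be told apart. THUMPD1 itself had 46.4 and 42.5 CPM (counts relative to library size) in the WT libraries and 6.13 and 5.44 CPM in the KO libraries, a log2 fold change of -2.93, in the direction the labels give.

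Clustered protocadherins are cadherin-like adhesion molecules of the cell surface, best known in neurons. A neuron turns on a small, partly random choice of their promoters, and the combination of proteins on its surface lets it tell its own branches from those of other cells. Each alpha or gamma gene has a first exon of its own, which encodes the outside and the membrane-spanning part of the protein, and splices it to 3 constant exons common to its cluster. Beta genes lack constant exons. CTCF and cohesin bring a distant enhancer to the chosen promoter, and DNA methylation and the SMCHD1 protein keep others silent.

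All 3 clusters read from left to right on the plus strand of GRCh38. The alpha cluster runs from 140786136 to 141012347 on chromosome 5, the beta cluster from 141051374 to 141249365 and the gamma cluster from 141330514 to 141512977. PCDHA12 (ENSG00000251664.5) lies at chr5:140875302-141012347. PCDHGC5 (ENSG00000240764.4), a gamma gene of the C type and thus nearest to the constant exons, lies at chr5:141489081-141512975. The counts were not labelled with this build, so these positions describe the annotation and not the counting.

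The promoters are shown because they carry the feature that most beta genes share and that the choice of genes did not use. RefSeq promoter sequences (GRCh38.p14, from 250 bases before to 50 bases after the gene start) were found for 15 of the 18 genes, and not for PCDHB6, PCDHB11 and PCDHGC5. The letters GGTGGCGCT, read off these sequences, stood in 13 of the 14 beta promoters (92.9%), against 169 of 27305 promoters of all genes (0.619%), searched on both strands. They stood in 0 of 13 alpha and 0 of 20 gamma promoters of the table. The shorter letters CGCT, which lie inside them and are the core of the conserved element known from protocadherin promoters, were present in 12 of 13 alpha, 14 of 14 beta and 20 of 20 gamma promoters. They were also present in 71.9% of all promoters, so they set these genes apart little. The beta promoter without the longer match was that of PCDHB1. The match began between 84 bases before the gene start, in PCDHB4, and 2 bases before it, in PCDHB8. Windows of 30 bases follow for PCDHA12, for the beta genes with the most counts that had an entry (PCDHB2 and PCDHB14), and for those with the match but 0 counts in all libraries (PCDHB5, PCDHB7 and PCDHB13). Capitals mark GGTGGCGCT in the beta genes and CGCT in PCDHA12.
PCDHA12, chr5:140875242-140875271, plus strand: taatcagtcacatgatgtCGCTctacactc
PCDHB2, chr5:141094541-141094570, plus strand: cggaagagacgcggGGTGGCGCTgcagcct
PCDHB14, chr5:141223260-141223289, plus strand: acatggagacacatGGTGGCGCTacaggat
PCDHB5, chr5:141135176-141135205, plus strand: aaattaggacgcctGGTGGCGCTgcaggct
PCDHB7, chr5:141172563-141172592, plus strand: tccacaaaacgcaaGGTGGCGCTgctggct
PCDHB13, chr5:141213862-141213891, plus strand: ctgtgaggacgcgtGGTGGCGCTgcaggat
Of the 13 beta genes with the match, 10 had a count in some library and 3 had none. Since 7 of those 10 had only 1 count over all libraries, this split lies at the floor and tells nothing about the match. A match is a stretch of letters in the reference and not a measured binding site.

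Sequencing depth ran from 7875722 counts in WT replicate 1 to 11362363 in WT replicate 2. At these depths 1 count was worth 0.0863 to 0.13 CPM, and 3 counts, taken as the floor, 0.259 to 0.391 CPM. Of the 18 genes, 1 passed the filter for testing (at least 1 CPM in at least 2 libraries) and 17 did not. Genes were called at an adjusted p under 0.05 by the quasi-likelihood test of edgeR, adjusted over all genes tested by the Benjamini-Hochberg method. No clustered protocadherin was called, with 0 alpha, 0 beta and 0 gamma genes called and 0 at an unadjusted p under 0.05, while 20.9% of the 13128 genes tested were called, 8.79% higher and 12.1% lower in KO cells. With only 1 gene of the clusters tested, its lack of a call cannot be set against those percentages.

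**Figure D1:**
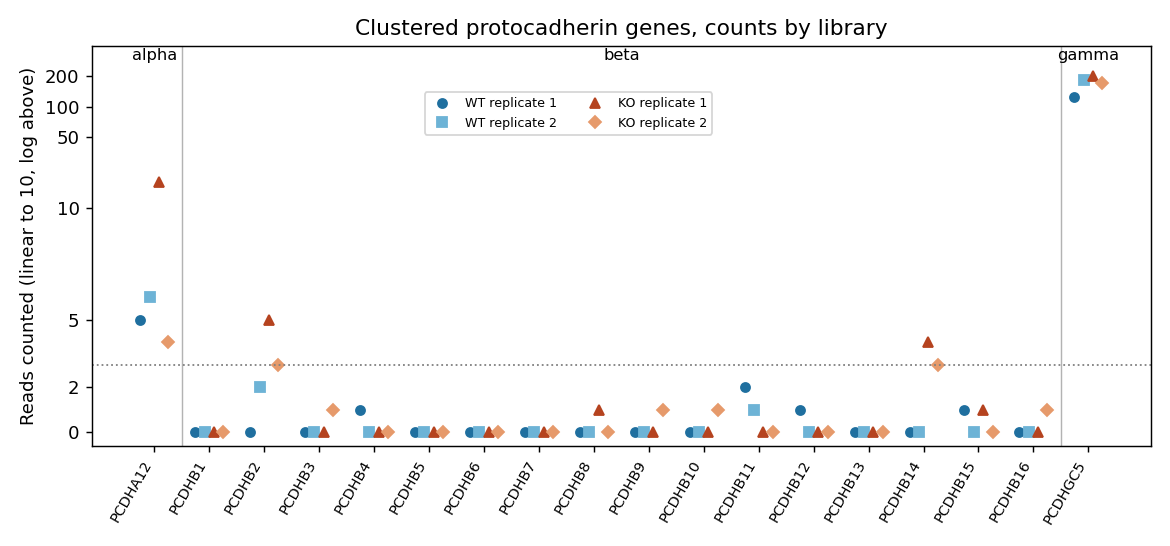
Reads counted for each of the 18 clustered protocadherin genes (horizontal axis) in the 4 libraries (vertical axis, linear up to 10 and logarithmic above), with the WT libraries in blue, the KO libraries in orange and the floor of 3 counts as a dotted line. PCDHGC5 stands between 125 and 200 counts in every library, PCDHA12 between 4 and 18, and no beta gene is above 5.

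Of the 18 genes measured, the gamma gene PCDHGC5 was the one counted well above the floor in every library. Reads numbered 125 and 182 for WT and 200 and 170 for KO, or 16.3, 16.5, 17.3 and 15.9 CPM. The KO libraries lay on either side of the WT libraries. WT cells had a mean of 16.4 ± 0.183 CPM and KO cells one of 16.6 ± 0.928 CPM (SD, n = 2 each). This came to a log2 fold change of 0.02 (standard error 0.17), with a 95% interval from -0.34 to 0.37, or a fold from 0.792 to 1.29 (adjusted p = 0.959, edgeR's quasi-likelihood test). A change within that range was not detectable at this depth. Counting error alone gave 95% Poisson intervals of 13.6 to 19.4 CPM in WT replicate 1 and of 13.6 to 18.5 CPM in KO replicate 2, and those of the other libraries overlapped them. The level lay below the middle of the genes tested, as 32.4% of them had a lower mean CPM. The floor was at most 0.391 CPM in any library.

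The count of PCDHGC5 has to be read with its exons in view. Its canonical transcript has 4 exons and 4797 bases, of which the first exon's 2620 bases belong to this gene alone and 2177 (45.4%) lie in the constant exons that it shares with all 21 other gamma genes. Of the 50-base stretches of the transcript, 44.9% also occurred in transcripts of other genes, while none (0%) of those inside the first exon did. The table holds 1 number per gene and not per exon, so reads of the first exon and of the constant exons could not be separated. Whether the value stands for PCDHGC5 or for gamma transcripts as a group was not tested.

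Per length, PCDHGC5 ranked 4th of 14 protocadherins outside the beta cluster, with 3.40 and 3.44 CPM per kilobase of exon in WT and 3.61 and 3.31 in KO libraries. PCDH9 was highest, with a mean over all libraries of 20.5 CPM per kilobase, before PCDH7 with 10.7 and PCDH10 with 7.88, which are protocadherins encoded outside the clusters. The next after PCDHGC5 was PCDH20, whose 4 values from 0.842 to 1.44 CPM per kilobase all lay below those of PCDHGC5. PCDHA12 ranked 13th of 14, with 0.0694 to 0.287 CPM per kilobase, and its values overlapped those of PCDH15 (0.125 to 0.281) and PCDH8 (0.0184 to 0.128).

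**Figure D2:**
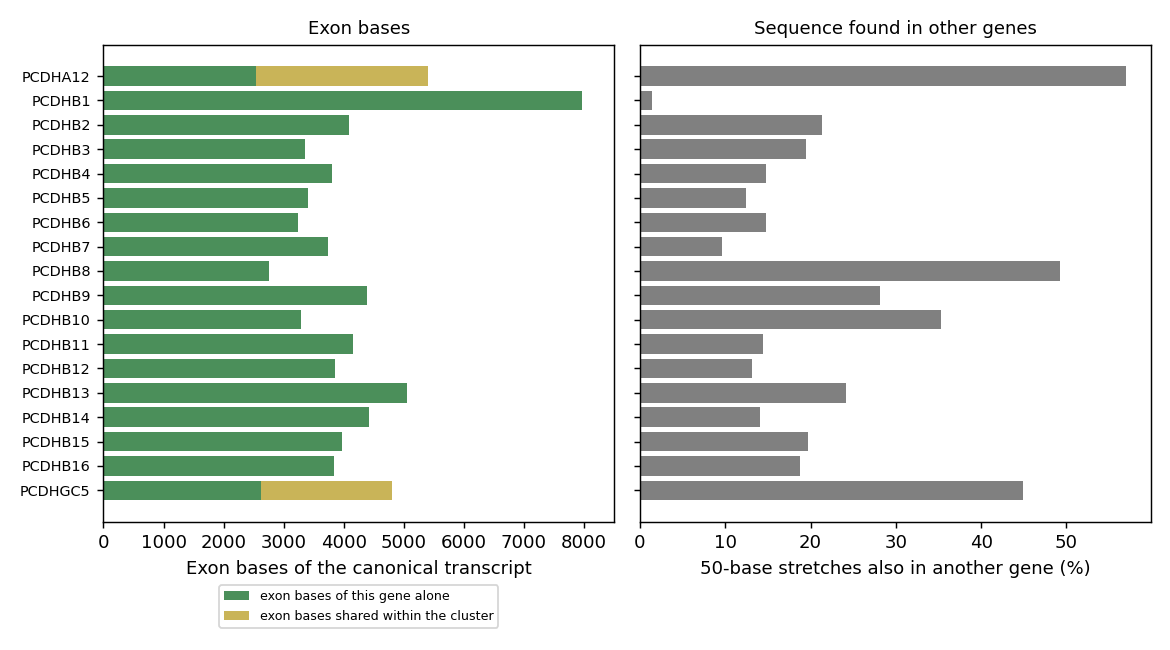
Left, exon bases of the canonical transcript of each clustered protocadherin, split into bases of that gene alone (green) and bases that lie in exons of other genes of its cluster (yellow). Right, the percent of 50-base stretches of the transcript found in transcripts of another gene, which ran from 1.41% in PCDHB1 to 57.0% in PCDHA12.

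PCDHA12, the alpha gene, was near the floor. Reads numbered 5 and 6 for WT and 18 and 4 for KO, or 0.651, 0.545, 1.55 and 0.375 CPM. KO replicate 1 was above both WT libraries and KO replicate 2 below both, so the genotypes overlapped. WT cells had a mean of 0.598 ± 0.075 CPM and KO cells one of 0.964 ± 0.833 CPM (SD, n = 2 each), a log2 ratio of 0.69 that became -0.67 without KO replicate 1. The ratio of summed counts, 22 in KO against 11 in WT cells, was 1.68 with a 95% counting interval from 0.78 to 3.83. The gene reached 1 CPM in 1 library only and was therefore not tested. In a fit without the filter its log2 fold change of 0.70 had a 95% interval from -1.13 to 2.53 (adjusted p = 0.691, edgeR). Its first exon has 2532 of the 5401 bases of its transcript, and the other 2869 (53.1%) are shared with the 14 other alpha genes. Since 9.26% of the 50-base stretches of its first exon also occurred in other genes, some reads of this exon, too, need not be its own.

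The beta cluster was close to silent in both genotypes. Its 16 genes together drew 5 and 3 reads in WT and 11 and 10 reads in KO libraries. As CPM of the whole cluster these were 0.651 and 0.273 in WT and 0.949 and 0.938 in KO libraries, against at least 15.9 CPM for PCDHGC5 alone. The KO values lay above the WT values, but their 95% Poisson intervals (0.474 to 1.70 and 0.45 to 1.73 CPM) overlapped those of the WT libraries (0.212 to 1.52 and 0.0562 to 0.797 CPM). WT cells had a mean of 0.462 ± 0.268 CPM and KO cells one of 0.944 ± 0.0079 CPM (SD, n = 2 each), a log2 ratio of 1.03. The ratio of summed counts, 21 in KO against 8 in WT cells, was 2.20 with a 95% counting interval from 0.938 to 5.75, which includes equal levels. The log2 ratio was 0.66 without PCDHB2, 0.53 without WT replicate 2 and 1.79 without WT replicate 1.

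Single beta genes were at or near 0. Of the 64 values of 16 genes in 4 libraries, 48 were 0, with 26 of 32 in WT and 22 of 32 in KO libraries. PCDHB1, PCDHB5, PCDHB6, PCDHB7 and PCDHB13 had 0 counts in all libraries, which allows up to 0.391 CPM in WT replicate 1 and 0.259 CPM in KO replicate 1. Over all genes of the count data, 9.91% of genes had 0 counts in all libraries and 22.6% had at most 5 counts in every library, as all 16 beta genes did. A total of 1 count over the 4 libraries was found for 7 genes (PCDHB3, PCDHB4, PCDHB8, PCDHB9, PCDHB10, PCDHB12 and PCDHB16), and PCDHB15 had 1 count in WT replicate 1 and 1 in KO replicate 1.

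The 3 beta genes with the most counts were PCDHB2, PCDHB14 and PCDHB11. PCDHB2, at chr5:141094606-141098703, had 0 and 2 counts in WT and 5 and 3 in KO libraries, so that the KO libraries lay just above the WT libraries. PCDHB14, at chr5:141223343-141227759, had 0 and 0 counts in WT and 4 and 3 in KO libraries. Its KO levels of 0.345 and 0.281 CPM lay between the floors of the WT libraries (0.391 and 0.273 CPM), so no fold is given. PCDHB11, at chr5:141199610-141203779, went the other way, with 2 and 1 counts in WT and 0 and 0 in KO libraries. When all genes with at least 1 count were tested, 13 of the 18 clustered protocadherins (11 of them beta genes) entered and 0 were called. Of the 17042 genes of that fit, 17.4% were called. Among the 13, the lowest p was that of PCDHB14 (unadjusted p = 0.0679, adjusted p = 0.225, edgeR). Of the 11 beta genes, 7 had only 1 count over all libraries, and PCDHB2, with the most, had 10. The interval of the log2 fold change ran from -1.56 to 4.91 for PCDHB2 and from -3.98 to 8.44 for PCDHB3, with 1 count. At so few counts a call was hardly possible, so the 0 calls of the beta genes cannot be set against the 17.4%. In bulk RNA, a few cells with a beta gene turned on and a low level in all cells cannot be told apart.

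All 16 beta genes have 1 exon, of 2750 to 7973 bases, and share no exon with another gene of the cluster. Their sequences resemble each other, though, and the share of 50-base stretches that also occurred in other genes ran from 1.41% in PCDHB1 to 49.2% in PCDHB8, with a median of 16.8%. If only reads with a unique position were counted, part of PCDHB8 would therefore be out of reach, whereas almost all of PCDHB1, which had 0 counts, would not. Antisense RNA genes lie over PCDHA12 and over many beta genes, such as PCDHB1-AS1 over PCDHB1 and the start of PCDHB2, and a gene of the same strand overlaps PCDHB14. Whether the counting used the strand is not stated, so reads of such pairs could not be told apart.

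The genes around the clusters were described to see whether the region moved as a whole, from a list of 29 genes, 24 of them tested. The median log2 fold change of these was -0.13, beside 0.07 for 550 tested genes of chromosome 5 and 0.01 for all genes tested. In KO cells 1 was called higher, 3 were called lower and 20 were not called, a share near the 20.9% called of all genes tested. TAF7, which encodes a subunit of the general transcription factor TFIID, lies between the beta and gamma clusters on the minus strand. It had 57.2 and 53.3 CPM in WT and 72.1 and 68.2 CPM in KO libraries, so both KO libraries were above both WT libraries. Its log2 fold change was 0.35 (standard error 0.10, adjusted p = 0.00985, edgeR). It was called higher under all 8 other settings, but not without WT replicate 2 or without KO replicate 1. SLC25A2, a mitochondrial ornithine carrier gene in the same interval, had 0 counts in all libraries.

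Farther away, FCHSD1 had 7.04 and 9.18 CPM in WT and 3.97 and 5.07 CPM in KO libraries, a log2 fold change of -0.86 (adjusted p = 0.0431, edgeR). TMCO6 had 14.9 and 15.6 CPM in WT and 9.58 and 11.3 CPM in KO libraries, a log2 fold change of -0.55 (adjusted p = 0.0494, edgeR). ZMAT2, which encodes a spliceosome component and is the tested gene nearest to the alpha cluster, was the other gene called lower, at -0.28. The 3 lower calls depended on the scaling and the tool, as 0 genes of the list were called lower with library size alone, with DESeq2, without KO replicate 1 or without KO replicate 2. TMCO6 lost its call without any one library (log2 fold change from -0.67 to -0.44 with each left out), and FCHSD1 without WT replicate 2, KO replicate 1 or KO replicate 2 (from -1.04 to -0.64). DIAPH1, a formin gene on the minus strand whose left end lies just beyond the gamma cluster, had a log2 fold change of -0.21. It was not called (adjusted p = 0.0607, edgeR).

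**Figure D3:**
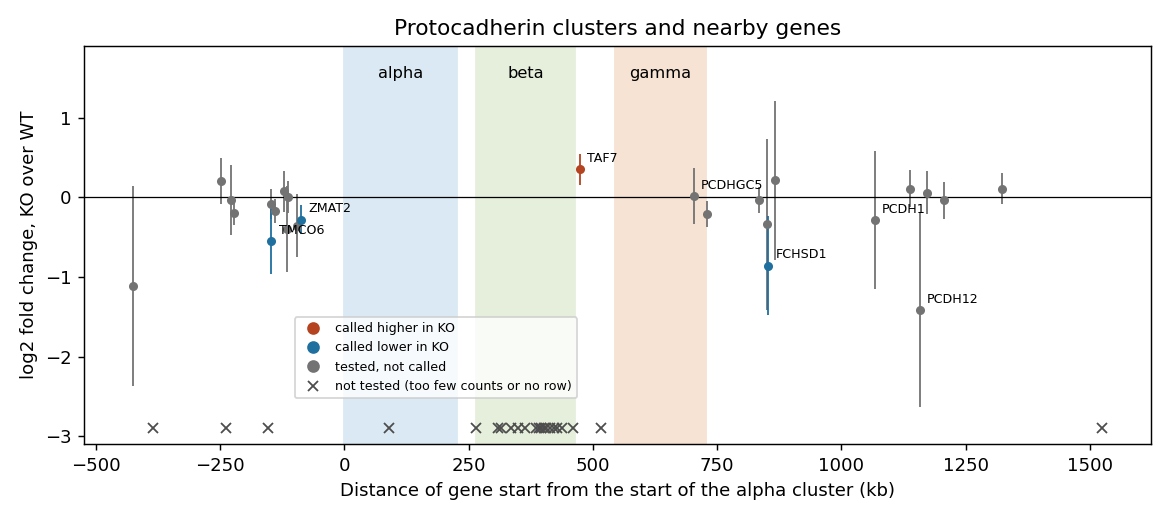
Log2 fold change of KO over WT (vertical axis, bars are 95% intervals) for genes on chromosome 5, placed by the distance of the gene's left end from the start of the alpha cluster in kilobases (horizontal axis), with the clusters shaded. PCDHGC5 lies at 0.02 with an interval on either side of 0, TAF7 is the one gene called higher at 0.35, and crosses mark genes that were not tested, among them all 16 beta genes.

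RNA of the genes that act in protocadherin promoter choice was found in both genotypes. Of 12 genes for CTCF, cohesin and its loading and releasing factors, all were tested, with 6 called higher, 1 lower and 5 not called, where 20.9% of all genes tested were called, 8.79% higher and 12.1% lower. Their median log2 fold change was 0.18, beside 0.01 for all genes tested. CTCF itself, which binds DNA at many of these promoters, had 199 and 193 CPM in WT and 181 and 175 CPM in KO libraries. Its log2 fold change of -0.14 was not called (adjusted p = 0.138, edgeR). Whether PCDHGC5, which had no promoter entry, depends on CTCF or cohesin was not tested. The CTCF gene lies on chromosome 16, where the median log2 fold change of 525 tested genes was -0.45. The part of this in the value of CTCF was not tested. PDS5B, a cohesin regulator, had 57.3 and 63.8 CPM in WT and 75.2 and 77.2 CPM in KO libraries, a log2 fold change of 0.33 (adjusted p = 0.0130, edgeR). NIPBL, which loads cohesin, had 88.7 and 90.4 CPM in WT and 114 and 107 CPM in KO libraries, a log2 fold change of 0.30 (adjusted p = 0.00655, edgeR). STAG1, a cohesin subunit, had 80.5 and 81.4 CPM in WT and 103 and 97.3 CPM in KO libraries, also a log2 fold change of 0.30 (adjusted p = 0.00839, edgeR). The others called higher were STAG2, SMC3 and PDS5A, and SMC1A was called lower at -0.19. Calls for higher levels fell to 3 with DESeq2 and to 2 without KO replicate 1, NIPBL and STAG1 were not called without KO replicate 1, PDS5B was not called with DESeq2, without WT replicate 1 or without KO replicate 2, and the call for SMC1A was lost with library size alone, with upper-quartile scaling, without WT replicate 2 and without KO replicate 1.

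Among 17 genes for silencing proteins and enzymes of DNA methylation, 3 were called higher, 2 lower and 12 not, beside 20.9% called of all genes tested, and the median log2 fold change was -0.07. TET2, which oxidizes methylated cytosine, had 57.7 and 53.5 CPM in WT and 78.1 and 72.5 CPM in KO libraries, a log2 fold change of 0.44 (adjusted p = 0.00137, edgeR). REST, a repressor of neuronal genes, had 59.7 and 65.1 CPM in WT and 79.6 and 80.9 CPM in KO libraries, a log2 fold change of 0.36 (adjusted p = 0.00547, edgeR). DNMT3A, a methyltransferase that sets new DNA methylation, had 84.0 and 86.4 CPM in WT and 64.5 and 71.0 CPM in KO libraries, a log2 fold change of -0.33 (adjusted p = 0.00798, edgeR). In each of these genes the genotypes did not overlap, and only DNMT3A lost its call without a library, KO replicate 1. SETDB1 was also called higher and UHRF1 lower. SMCHD1, the silencer best known for these clusters, had 62.9 and 64.2 CPM in WT and 81.6 and 70.4 CPM in KO libraries, and its log2 fold change of 0.26 just missed the threshold (adjusted p = 0.0539, edgeR).

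Of 19 genes for partners of protocadherin proteins and for the proteases that cut them, 3 were called higher, 3 lower and 13 not, beside 20.9% called of all genes tested, and the median log2 fold change was -0.08. AXIN1, which encodes a scaffold of Wnt signalling, had 81.6 and 86.4 CPM in WT and 40.2 and 40.6 CPM in KO libraries, a log2 fold change of -1.06 (adjusted p = 1.26e-08, edgeR). It lies on chromosome 16, as THUMPD1 does, where 263 of 525 tested genes were called lower and 5 higher, with a median of -0.45, and the part of this in the fall of AXIN1 was not tested. CYFIP2, a subunit of the WAVE actin regulatory complex, had 123 and 120 CPM in WT and 93.5 and 100.4 CPM in KO libraries, a log2 fold change of -0.33 (adjusted p = 0.00299, edgeR). FYN, a kinase that binds alpha protocadherins, had 79.5 and 67.7 CPM in WT and 95.5 and 85.5 CPM in KO libraries, a log2 fold change of 0.31 (adjusted p = 0.0190, edgeR) that was not called with DESeq2, without WT replicate 2 or without KO replicate 1. CYFIP2 was not called without KO replicate 1. PTK2, the focal adhesion kinase that the constant parts of these proteins inhibit, and NCSTN of the gamma-secretase complex were also called higher, and WASF1 lower.

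**Figure D4:**
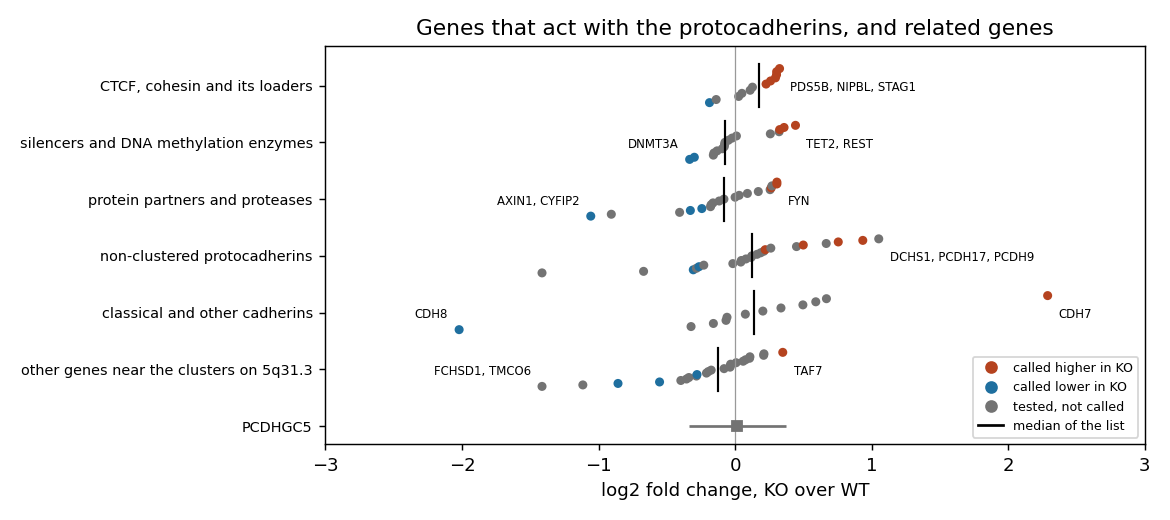
Log2 fold change of KO over WT (horizontal axis) of each tested gene in 6 lists (rows), with calls in colour, the median of each list as a vertical line and up to 3 called genes with the largest changes named. PCDHGC5 is drawn below with its 95% interval, from -0.34 to 0.37, and most genes of the first 3 lists lie inside that range.

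Protocadherin-related genes outside the clusters were expressed more widely. Of 24 such genes, among them delta protocadherins and the FAT, DCHS and CELSR families, 23 were tested, with 4 called higher, 2 lower and 17 not, a share near the 20.9% called of all genes tested. The median log2 fold change was 0.12. PCDH9, the most abundant of them per length, had 110 and 102 CPM in WT and 156 and 143 CPM in KO libraries, a log2 fold change of 0.50 (adjusted p = 3.37e-05, edgeR), and was called higher under every setting and without each library in turn. DCHS1, the large partner of FAT4, had 8.60 and 4.27 CPM in WT and 12.6 and 11.3 CPM in KO libraries, a log2 fold change of 0.94 (adjusted p = 0.0153, edgeR). PCDH17 had 4.69 and 6.64 CPM in WT and 11.1 and 8.35 CPM in KO libraries, a log2 fold change of 0.76 (adjusted p = 0.0497, edgeR). The calls of DCHS1 and PCDH17 were lost with DESeq2 and without KO replicate 1, that of DCHS1 also without WT replicate 2 and that of PCDH17 also without WT replicate 1 and with limma-voom. With each library left out, the log2 fold change of DCHS1 ran from 0.47 to 1.48 and that of PCDH17 from 0.54 to 1.05. FAT1 was called higher at 0.22, and CELSR1 and CELSR2 lower at -0.31 and -0.26. PCDH12, which lies beyond the gamma cluster, had 10 and 47 counts in WT and 13 and 11 in KO libraries, so that WT replicate 2 stood apart from the other 3 libraries.

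Of 20 classical and other cadherins, 12 were tested, with 1 called higher, 1 lower and 10 not, a share near the 20.9% called of all genes tested. The median log2 fold change was 0.14. CDH7 had 0.782 and 0.273 CPM in WT and 3.19 and 1.69 CPM in KO libraries, a log2 fold change of 2.29 (adjusted p = 0.0206, edgeR). CDH8 had 2.09 and 2.00 CPM in WT and 0.604 and 0.375 CPM in KO libraries, a log2 fold change of -2.02 (adjusted p = 0.0383, edgeR). CDH8 lies on chromosome 16, where 263 of 525 tested genes were called lower and 5 higher, with a median of -0.45. The part of this in the fall of CDH8 was not tested. CDH7 had at most 37 and CDH8 at most 22 counts in a library, and DESeq2 gave no adjusted p for either. The call of CDH7 was lost with limma-voom and without WT replicate 2 or KO replicate 1 (log2 fold change from 1.63 to 3.12 with each library left out), and that of CDH8 without the filter on low counts and without any one library (-2.40 to -1.73).

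Markers of cell types were read to check the label. All 10 genes of a list for embryonic kidney and HEK cells were tested, with 2 called higher (LHX1 and NEFL) and 2 lower (KRT18 and NEFM), and their summed level was 779 to 798 CPM in WT and 633 to 674 CPM in KO libraries. NEFM, a neurofilament gene, went from 185 and 177 CPM in WT to 26.3 and 23.0 CPM in KO libraries, and without it the sums overlapped, at 602 to 613 CPM in WT and 607 to 651 CPM in KO libraries. Of 10 neuronal markers 8 were tested and 1, SNAP25, was called higher, with 5 and 3 counts in WT and 23 and 21 in KO libraries. The list had 0 calls without the filter, with limma-voom, and without WT replicate 2, KO replicate 1 or KO replicate 2, and 4 without WT replicate 1, while DESeq2 gave no adjusted p for SNAP25. The median log2 fold change of the 8 was 0.75, and 0.18 to 1.09 under the other settings. DCX had 0 and 0 counts in WT and 8 and 2 in KO libraries, while the summed level ranged from 63.5 to 76.7 CPM in WT and from 76.6 to 78.3 CPM in KO libraries. Of 6 markers of glia 2 were tested and 1, MBP, was called lower, and of 6 of fibroblasts 3 were tested and 0 called. The 7 of blood and endothelium summed to at most 1.97 CPM and were too low to test. Markers that were not tested cannot be read as unchanged. Of all genes tested 20.9% were called, and these marker lists are too short to set against that share.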

How the data were processed

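Raw read counts per gene symbol of 4 libraries were used as deposited by the authors, without normalization. The labels name total RNA and a Zymo-Seq RiboFree kit with paired reads. The submitters' processing notes name hg19, whereas the paper's methods for RNA-seq name STAR and RSEM on GRCh38 with 3 samples per genotype. Which pipeline made the counts, how it treated reads of shared exons, and whether it used the strand are not given in the sources used here. A table of the authors' own comparison (mean, log2 fold change, its error, p-values) was not used.

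Counts were fitted with edgeR 4.0.16 in R 4.3.3 (glmQLFit and glmQLFTest, TMM factors, two-sided) on 13128 genes that reached 1 CPM in 2 or more libraries. P-values were adjusted over all of these by the Benjamini-Hochberg method, with a threshold of 0.05. For CPM the library sizes were multiplied by the TMM factors, each SD is over 2 libraries, and cluster sums were described without a test. Poisson intervals, counting intervals of ratios and floors (3 counts) cover counting error only. The edgeR intervals of log2 fold changes also take in the estimated spread between libraries. An exact permutation test of 2 against 2 cannot go below p = 0.333. Nothing states that replicates are separate cultures, so p-values measure the spread between these libraries, which may be technical. The chi-square per degree of freedom between replicates was 4.08 in WT and 6.90 in KO cells, above sampling noise.

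Alternatives were 3 other filters, library size alone, upper quartile factors, DESeq2 1.42.0, limma-voom 3.58.1 with quantile normalization, the replicate number as a block, a threshold of 0.01, and leaving out each library. Exons and positions come from GENCODE 44 on GRCh38, and promoters from RefSeq. The shared 50-base stretches were counted on the same strand in GENCODE transcripts. Members and lists were chosen with earlier results of these data known, and GGTGGCGCT after the promoters were seen. Values are given by library for PCDHA12, PCDHGC5, the 3 beta genes with the most counts, THUMPD1, TAF7, SLC25A2 and, in each list, up to 3 called genes with the largest change. CTCF, SMCHD1, PCDH12, NEFM, SNAP25 and DCX were added after their values were seen. Tables and figures were made with Python 3.11.15, pandas 2.3.3, NumPy 2.4.6 and matplotlib 3.10.9.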

Additional observations from a re-analysis of the deposited data

How the results depend on the processing

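Under every alternative that could be fitted, 0 clustered protocadherins were called, but PCDHGC5 was the only one tested in each. Alpha and beta genes entered the fit without a filter alone, so under the other settings their lack of calls was fixed by the filter. The 2748 genes called among all genes tested became 1764 with DESeq2, 1595 at an adjusted p under 0.01, and 1620 to 2591 with each library left out, the lowest without KO replicate 1. Of the called genes 58.0% were lower in KO cells, but 35.8% with library size alone, 50.8% with upper-quartile and 51.3% with quantile scaling. The log2 fold change of PCDHGC5 ran from 0.01 to 0.10 (adjusted p from 0.715 to 0.979) over the 8 alternatives, and from -0.04, without KO replicate 1, to 0.07 with each library left out. Without a test, the summed log2 ratio of the gamma cluster was 0.10 with library size alone and -0.04 to 0.07 with each library left out. This sum holds PCDHGC5 alone, so it is no second result. Likewise that of the alpha cluster, which holds PCDHA12 alone, ran from -0.67 to 1.38 and that of the beta cluster from 0.53 to 1.79. The cause of these shifts was not tested. For alpha and gamma no sum could be made without the leading gene, and for alpha and beta none over genes that pass the filter. With the replicate block 3222 genes were called. The labels' numbers do not tie libraries across genotypes, and the deviations of WT replicate 1 correlated at 0.06 with KO replicate 1 and at -0.06 with KO replicate 2 over 11112 genes, so pairing was not assumed. Depth limits the alpha and beta genes most: at 1 count of 0.0863 to 0.13 CPM, changes among the beta values of 0 to 5 counts were not detectable. PCDHA12 had 5 and 6 counts in WT and 18 and 4 in KO libraries, so its KO replicates also differed from each other.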
